A study of Homo sapiens with 9 samples.

Results

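The genes described here are 44 genes of DNA crosslink repair and homologous recombination, chosen by name from the 32378 genes of the deposited count table. These genes and the further lists below were chosen with earlier results of these data known. Their shares beside those of all genes are therefore descriptions, not independent tests. They cover the checkpoint kinases, the BRCA1 and BRCA2 complexes, the strand exchange helpers, the Fanconi anemia proteins, the incision nucleases, the bypass polymerases and the end resection factors. All 44 had a row, and all 44 had enough reads to be tested. The lowest count of any of them in any library was 30, for RAD54B.

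RNA was sequenced in 9 libraries of 3 groups from SKOV3 cells, a long-established line from a human ovarian cancer. Cells received Carbo+COM33 in 3 libraries and Carbo in 3 libraries, and 3 libraries came from cells labelled control. Carbo is read here as carboplatin, which forms platinum crosslinks in DNA, because the series states that COM33 was studied for its effect on carboplatin sensitivity. COM33 is known only by this code name. No dose or time was given, and no cells with COM33 but without Carbo were analysed. All cells shared the same line and the same RPMI medium with serum. Nothing stated whether the 3 libraries of a group came from separate cultures, so every p-value measures the spread between these libraries, which may be technical.

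A platinum crosslink that ties both strands of DNA together stops replication forks. In the textbook pathway the Fanconi core complex attaches ubiquitin to the FANCI and FANCD2 clamp, nucleases unhook the crosslink, bypass polymerases copy past the remnant, and the resulting break is repaired by homologous recombination, which depends on BRCA1 and BRCA2. Ovarian cancers with lost BRCA function are known for their sensitivity to platinum drugs, and many of these repair genes are transcribed mainly in S and G2 phase.

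Library totals were 13851760 to 15533668 counts assigned to genes. Carbo replicate 1, control replicate 1 and Carbo+COM33 replicate 3 each stood furthest from the other libraries of their group. ERBB2, which is known to be amplified in this line, was at 141 to 245 FPKM (the count scaled to gene length and to the library total) and PAX8, a marker of Müllerian epithelium, at 38.0 to 70.4 FPKM. The ovarian cancer markers WT1 and MUC16 were near 0, at no more than 0.562 and 0.0646 FPKM. The 11 markers of blood, endothelium, nerve, liver and muscle summed to 33 to 49 counts per library with Carbo+COM33, 36 to 42 with Carbo and 50 to 56 in control. In RNA from bulk cells, a change in the share of cells in one state and a change in RNA per cell cannot be told apart.

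Levels differed among the 44 genes by 47.4-fold in control cells, between RBBP8, which encodes the resection factor CtIP, at 19.9 ± 4.52 FPKM and RAD54B, a DNA translocase of homologous recombination, at 0.421 ± 0.0297 FPKM (SD, n = 3). NBN, a subunit of the MRE11 nuclease complex, followed at 17.2 ± 2.69 FPKM, and TP53BP1, which restrains resection, at 12.5 ± 0.232 FPKM. The other resection partners were far lower, with MRE11 at 2.89 ± 0.336 FPKM and RAD50 at 1.39 ± 0.0167 FPKM. Of the 43 neighbouring pairs in this order, 38 overlapped in their 3 control values, so most adjacent ranks did not differ beyond their spread. The median FPKM was 3.64 over the 44 genes and 4.32 over all 16450 genes tested. Within a group, the median coefficient of variation was 8.59% with Carbo+COM33, 12.1% with Carbo and 9.29% in control.

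**Figure D1:**
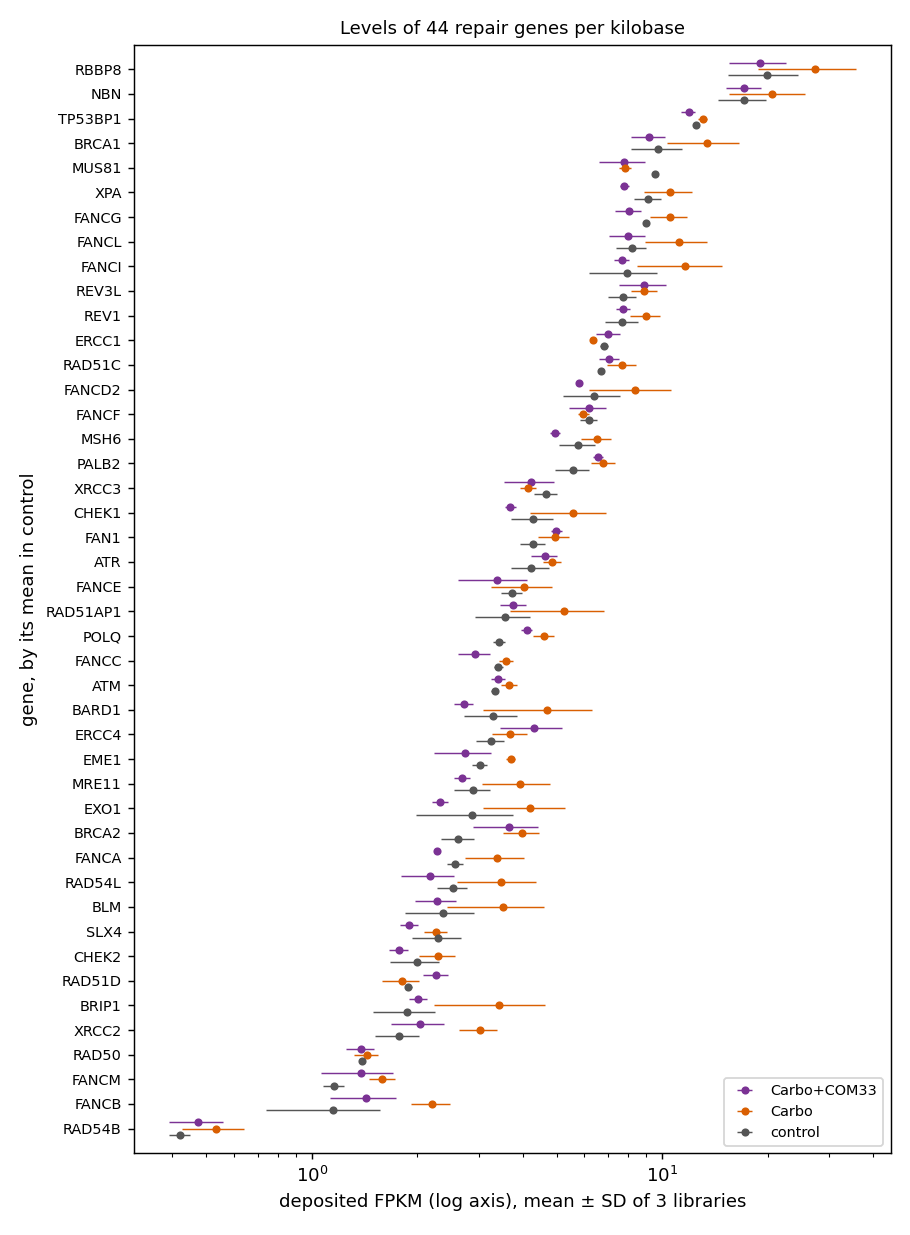
Mean deposited FPKM ± SD of 3 libraries (log axis) for each of the 44 repair genes with Carbo+COM33, Carbo and in control, ordered by the control mean. RBBP8 lies at the top and RAD54B at the bottom, and the Carbo bars are the widest for genes such as BRIP1, BARD1 and FANCI.

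Carbo against control asks what the platinum drug did to the RNA of genes that repair its damage. Most of the 44 genes were higher with Carbo: 38 had a positive log2 fold change, and the median was 0.27, beside 0.00 over all genes. How many passed the test depended on whether libraries with the same replicate number were taken as pairs. It also depended on the filter on low counts, the tool and the libraries in the fit. Unpaired, in the filtered fit of all 9 libraries, none of the 44 passed (0% of all genes in edgeR's quasi-likelihood test, adjusted p under 0.05). In that fit 21 of the 44 had an unadjusted p under 0.05 (16.7% of all genes). DESeq2, also unpaired, called 5 of the 44 higher (0.498% of all genes). With pairing, 25 of the 44 rose (11.2% of all genes rose) and 1, the nuclease gene MUS81, fell (11.5% of all genes fell). Because the list was chosen with earlier results of these data known, these shares are not an independent test. The pairing was taken from the data, since same-numbered Carbo and control libraries deviated together, and a block fitted over all 9 libraries again called none of the 44 (0% of all genes).

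In same-numbered libraries the ratio of Carbo to control had a median over the 44 genes of 1.15 in replicate 1, 1.2603 in replicate 2 and 1.253 in replicate 3. The level was higher with Carbo in all 3 pairs for 34 of the 44 genes (26.6% of all genes) and lower in all 3 pairs for 3 genes (26.3% of all genes), MUS81, XRCC3 and ERCC1. The 3 Carbo values lay wholly above the 3 control values for 9 of the 44 genes (10.8% of all genes) and wholly below them for 3 (11.7% of all genes). The share of nonoverlapping genes stood closer to its background than the share of paired calls did. CPM, the count scaled to the normalised library size, is used below to set a gene against itself between libraries.

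**Figure D2:**
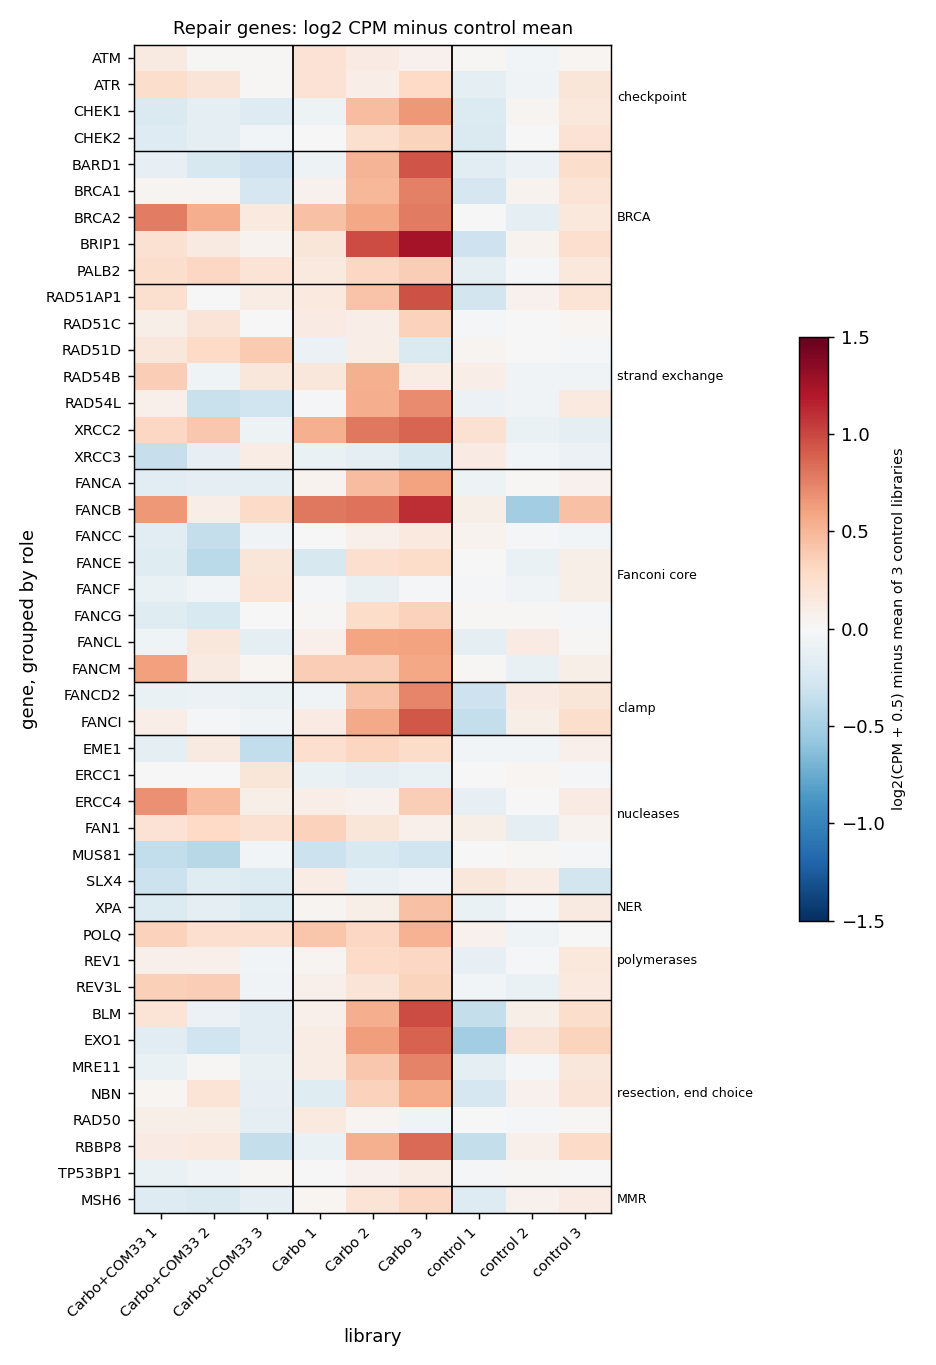
Log2(CPM + 0.5) minus the mean of the 3 control libraries, for 44 repair genes in rows grouped by role and 9 libraries in columns, Carbo+COM33, Carbo and control from left to right. Carbo 2 and Carbo 3 are the reddest columns, with BRIP1 and FANCB among the strongest rows, while Carbo 1 is pale for most genes.

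All 5 genes of the BRCA1 and BRCA2 complexes rose with pairing, with log2 fold changes from 0.28 to 0.84. BRIP1 (ENSG00000136492, chr17:61681266-61863521 in GRCh38), the helicase that binds BRCA1, had 17.4, 16.2 and 15.3 CPM with Carbo+COM33, 16.8, 29.4 and 35.6 CPM with Carbo, and 11.8, 15.3 and 17.6 CPM in control. Its Carbo 1 value lay within the control range, and Carbo 2 and Carbo 3 lay above every other library. The paired log2 fold change was 0.84 ± 0.10 (SE; edgeR adjusted p = 3.76e-05), and the unpaired one 0.87 ± 0.22 (edgeR adjusted p = 0.220).

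BRCA1 itself (ENSG00000012048, chr17:43044295-43170245), the ubiquitin ligase that starts recombination at broken ends, had 90.7, 91.1 and 74.3 CPM with Carbo+COM33, 92.6, 126 and 150 CPM with Carbo, and 74.0, 91.5 and 102 CPM in control. Each Carbo library exceeded the control library of its number, by 1.25-fold in replicate 1 and 1.37-fold in replicate 2, although the groups overlapped. The paired log2 fold change was 0.45 ± 0.055 (edgeR adjusted p = 3.76e-05). BARD1, the partner of BRCA1, had a paired log2 fold change of 0.49, and PALB2, which links BRCA1 to BRCA2, of 0.28 (edgeR adjusted p = 0.00282 and 0.0155).

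BRCA2 (ENSG00000139618, chr13:32315474-32400266), a mediator of homologous recombination, had 54.7, 46.9 and 35.3 CPM with Carbo+COM33, 43.3, 47.7 and 55.2 CPM with Carbo, and 31.8, 28.6 and 35.6 CPM in control. Here all 3 Carbo libraries stood above all 3 control libraries, Carbo 1 included. The paired log2 fold change was 0.61 ± 0.074 (edgeR adjusted p = 3.92e-05).

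Both subunits of the Fanconi clamp rose with pairing. FANCI (ENSG00000140525, chr15:89243949-89317261) had 64.4, 58.9 and 58.3 CPM with Carbo+COM33, 65.7, 89.5 and 115 CPM with Carbo, and 46.9, 64.2 and 72.5 CPM in control. The ratios of Carbo to control in the 3 pairs were 1.40, 1.39 and 1.59, and the paired p was the lowest of the 44 genes (log2 fold change 0.54 ± 0.059, edgeR adjusted p = 1.16e-05). Its partner FANCD2 had 49.0, 49.7 and 49.2 CPM with Carbo+COM33, 50.7, 71.0 and 88.1 CPM with Carbo, and 42.5, 57.4 and 60.1 CPM in control (paired log2 fold change 0.38, edgeR adjusted p = 0.000745). For both genes Carbo 1 lay inside the control range and Carbo 2 and Carbo 3 lay above it.

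The Fanconi core complex, which modifies that clamp, was mixed: FANCA, FANCB, FANCL and FANCM rose with pairing, and FANCC, FANCE, FANCF and FANCG did not pass. FANCA (ENSG00000187741, chr16:89737549-89816657) had 22.2, 22.6 and 22.4 CPM with Carbo+COM33, 25.8, 34.6 and 38.0 CPM with Carbo, and 23.6, 25.2 and 25.9 CPM in control. Its paired log2 fold change was 0.38 ± 0.088 (edgeR adjusted p = 0.00475), and Carbo 1 was level with the highest control library. FANCB had the largest fold change of the 44 genes, 0.95 ± 0.18 (edgeR adjusted p = 0.00134), at a low level of 1.15 ± 0.411 FPKM in control. FANCL, the ubiquitin ligase subunit, had 0.44 and FANCM, the translocase that anchors the complex, 0.46.

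Among the checkpoint kinases, CHEK1 and ATR rose with pairing and ATM and CHEK2 did not pass. CHEK1, the effector kinase of stalled forks, had 23.9, 25.4 and 24.4 CPM with Carbo+COM33, 26.4, 38.6 and 43.9 CPM with Carbo, and 24.1, 28.8 and 31.3 CPM in control (paired log2 fold change 0.36, edgeR adjusted p = 0.00516). ATR, which activates CHEK1, had 62.9, 60.1 and 52.9 CPM with Carbo+COM33, 60.8, 56.1 and 64.4 CPM with Carbo, and 47.7, 50.6 and 59.7 CPM in control (paired log2 fold change 0.20, edgeR adjusted p = 0.0397). The ATR groups overlapped, and its call was the weakest of the 25.

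ATM, the kinase of double-strand breaks, had 87.8, 80.9 and 80.3 CPM with Carbo+COM33, 92.2, 86.8 and 83.3 CPM with Carbo, and 80.3, 77.3 and 81.2 CPM in control. Carbo was above control in every library, by a small margin that did not pass (paired log2 fold change 0.13 ± 0.056, edgeR adjusted p = 0.101). Its sign turned after a correction for GC content and gene length, to -0.01. CHEK2, the kinase downstream of ATM, had 7.66, 8.03 and 8.59 CPM with Carbo+COM33, 8.88, 10.6 and 11.3 CPM with Carbo, and 7.56, 8.86 and 10.3 CPM in control (paired log2 fold change 0.20 ± 0.13, edgeR adjusted p = 0.291).

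End resection, which prepares a break for recombination, gave 5 paired rises among 7 genes: RBBP8, MRE11, NBN, EXO1 and BLM. RBBP8 (ENSG00000101773, chr18:22798261-23026488) had 108, 110 and 77.2 CPM with Carbo+COM33, 92.3, 144 and 179 CPM with Carbo, and 77.2, 104 and 122 CPM in control. Replicate 1 was the lowest and replicate 3 the highest library in both groups, and the paired log2 fold change was 0.43 ± 0.057 (edgeR adjusted p = 6.97e-05). The nuclease EXO1 and the helicase BLM each had a paired log2 fold change of 0.55. RAD50, the ATPase subunit of the MRE11 complex, at 0.04 ± 0.11, and TP53BP1, at 0.06 ± 0.047, did not pass.

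All 3 polymerase genes rose with pairing. POLQ (ENSG00000051341, chr3:121431427-121546641), the polymerase of theta-mediated end joining, had 41.0, 38.2 and 38.2 CPM with Carbo+COM33, 43.1, 39.9 and 46.4 CPM with Carbo, and 33.7, 30.7 and 31.95 CPM in control. Carbo did not overlap control, and Carbo 1 lay between the other Carbo libraries (paired log2 fold change 0.42 ± 0.073, edgeR adjusted p = 0.000591). REV3L, the catalytic subunit of polymerase zeta, and its partner REV1 changed less, with paired log2 fold changes of 0.20 and 0.22.

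Of the 7 helpers of strand exchange in homologous recombination, 3 rose with pairing: XRCC2 at 0.76 ± 0.14, RAD51AP1 at 0.54 ± 0.13 and RAD54L at 0.44 ± 0.14 (log2 fold change, SE). RAD51C, RAD51D, XRCC3 and RAD54B did not pass. XRCC2 and RAD51D, which act in the same complex, had paired log2 fold changes of 0.76 and -0.07. MSH6, the mismatch recognition subunit, rose by 0.18.

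The incision nucleases and their scaffold gave no paired rise and 1 paired fall among 6 genes. MUS81 (ENSG00000172732, chr11:65857126-65867653), which cuts stalled forks, had 40.1, 38.8 and 50.5 CPM with Carbo+COM33, 41.6, 44.3 and 42.2 CPM with Carbo, and 51.9, 52.6 and 51.4 CPM in control. All 3 Carbo libraries lay below all 3 control libraries (paired log2 fold change -0.29 ± 0.065, edgeR adjusted p = 0.00448), a call that a correction for GC content and length ended. ERCC1, a subunit of the nuclease that unhooks crosslinks, had 38.1, 37.8 and 43.2 CPM with Carbo+COM33, 35.3, 34.7 and 35.5 CPM with Carbo, and 38.1, 38.8 and 37.1 CPM in control.

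ERCC1 was lower with Carbo than in every control library but did not pass (paired log2 fold change -0.11 ± 0.071, edgeR adjusted p = 0.283), and the sign turned, to 0.01, after correction for GC content and length. XPA, the damage verification factor of nucleotide excision repair, had 14.3, 15.02 and 14.3 CPM with Carbo+COM33, 17.1, 17.7 and 22.7 CPM with Carbo, and 15.5, 16.2 and 18.2 CPM in control (paired log2 fold change 0.20, edgeR adjusted p = 0.156). Its Carbo and control values overlapped. Of the remaining nuclease genes, EME1, the partner of MUS81, and FAN1, a Fanconi-associated nuclease, had paired log2 fold changes of 0.29 ± 0.12 and 0.20 ± 0.085 (edgeR adjusted p = 0.0911 and 0.101), and ERCC4 of 0.18 ± 0.080 (0.119).

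**Figure D3:**
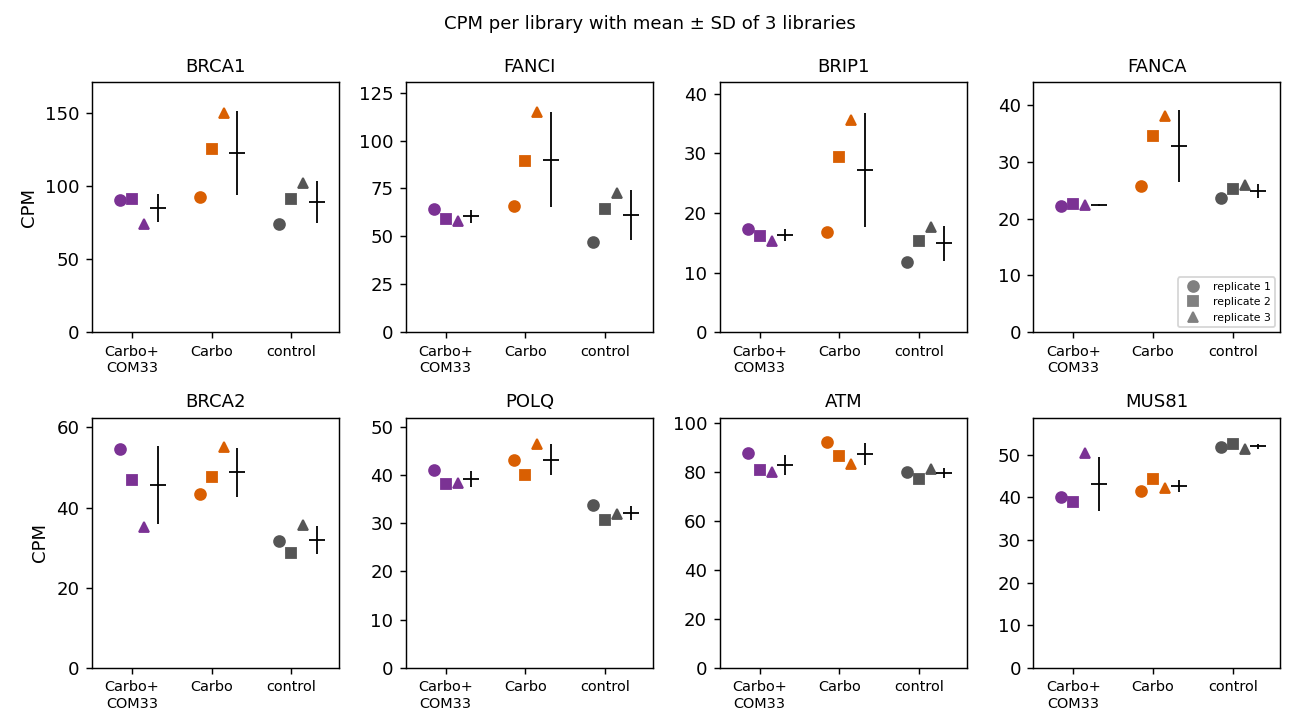
CPM of 8 repair genes in each library (circles, squares and triangles for replicates 1, 2 and 3) with the mean ± SD of 3 libraries, Carbo+COM33, Carbo and control from left to right, each axis starting at 0. BRCA1, FANCI, BRIP1 and FANCA show a wide Carbo group with replicate 1 lowest, whereas BRCA2 and POLQ lie above control in all 3 Carbo libraries and MUS81 lies below it.

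The number of unpaired calls depended on Carbo replicate 1. Without it, the unpaired test called 19 of the 44 genes higher with Carbo (3.33% of all genes), all of them among the 25 paired rises, with BRIP1 at a log2 fold change of 1.12, FANCI at 0.74 and BRCA1 at 0.63. The paired test had 2 residual degrees of freedom per gene. Leaving out pair 1, 2 or 3 kept 24, 16 or 23 of its 26 calls, in fits with 1 residual degree of freedom. Over all 16450 genes these fits called 2171, 732 or 1345 higher and 2167, 891 or 1497 lower. With all pairs 1847 were higher and 1892 lower, so calls over all genes also rose without pair 1.

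Promoters are shown for genes that rose together with pairing, since such genes are often read for shared cell cycle motifs. The E2F motif was searched as TTTCCCGC, TTTCGCGC, TTTGCCGC and TTTGGCGC, the CHR element of late cell cycle genes as TTTGAA, and the CCAAT box as CCAAT, on either strand. The windows ran from 250 bases before to 50 bases after each start in the RefSeq table for GRCh38.p14, which held 41 of the 44 genes and 35116 promoters in all. An E2F motif lay in 6 of the 41 windows, or 14.6%, and in 3.31% of all promoters. A CHR element lay in 4 of the 41, or 9.76%, and in 15.2% of all promoters, and a CCAAT box lay in 16 of the 41, or 39.0%, and in 34.6% of all promoters. In the 150 bases nearest the start, E2F motifs lay in 5 of the 41 windows, or 12.2%, and in 1.68% of all promoters. The 6 genes with an E2F motif were XRCC2, FANCA, FANCC, FANCD2, EXO1 and MSH6, of which FANCC did not rise.

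BRIP1, POLQ and BLM were, among the genes with the lowest paired p, those whose window held a motif. The windows used for BRCA1, BRCA2 and RBBP8 held none of the 3 motifs, and FANCI was not in the table. The BRCA1 window, chr17:43170278-43170577 (minus strand), lay outside the gene coordinates given above. It does not describe any other start of BRCA1. FANCA and FANCD2 were added, after their values were seen, as E2F examples. Capitals mark the motifs, and each sequence reads 5′ to 3′ on the strand of the gene. The windows are chr17:61863479-61863778 (minus strand) for BRIP1, chr3:121545939-121546238 (minus) for POLQ, chr15:90717096-90717395 (plus) for BLM, chr16:89816598-89816897 (minus) for FANCA and chr3:10026187-10026486 (plus) for FANCD2.
BRIP1: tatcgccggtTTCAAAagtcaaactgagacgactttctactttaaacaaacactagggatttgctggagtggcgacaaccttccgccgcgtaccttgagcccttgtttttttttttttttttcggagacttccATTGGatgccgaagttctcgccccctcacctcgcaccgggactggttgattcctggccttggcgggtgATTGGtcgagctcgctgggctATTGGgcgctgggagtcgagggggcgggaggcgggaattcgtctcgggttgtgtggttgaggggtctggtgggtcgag
POLQ: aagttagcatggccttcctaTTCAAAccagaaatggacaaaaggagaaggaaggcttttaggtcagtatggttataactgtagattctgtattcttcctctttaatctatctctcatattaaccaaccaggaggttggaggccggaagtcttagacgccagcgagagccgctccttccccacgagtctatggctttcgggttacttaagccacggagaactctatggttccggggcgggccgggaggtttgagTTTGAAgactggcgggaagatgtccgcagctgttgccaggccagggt
BLM: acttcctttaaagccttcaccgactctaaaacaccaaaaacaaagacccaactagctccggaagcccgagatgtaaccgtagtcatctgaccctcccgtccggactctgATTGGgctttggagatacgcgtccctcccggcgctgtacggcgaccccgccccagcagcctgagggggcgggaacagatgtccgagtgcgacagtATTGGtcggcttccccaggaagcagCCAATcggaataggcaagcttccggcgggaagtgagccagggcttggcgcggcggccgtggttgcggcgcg
FANCA: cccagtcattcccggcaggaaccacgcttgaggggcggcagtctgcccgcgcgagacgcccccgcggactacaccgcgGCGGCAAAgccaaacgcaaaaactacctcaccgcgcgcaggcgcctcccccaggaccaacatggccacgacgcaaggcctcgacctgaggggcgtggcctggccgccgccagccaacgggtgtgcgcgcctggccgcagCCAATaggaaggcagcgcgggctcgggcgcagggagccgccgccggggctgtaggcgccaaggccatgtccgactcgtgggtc
FANCD2: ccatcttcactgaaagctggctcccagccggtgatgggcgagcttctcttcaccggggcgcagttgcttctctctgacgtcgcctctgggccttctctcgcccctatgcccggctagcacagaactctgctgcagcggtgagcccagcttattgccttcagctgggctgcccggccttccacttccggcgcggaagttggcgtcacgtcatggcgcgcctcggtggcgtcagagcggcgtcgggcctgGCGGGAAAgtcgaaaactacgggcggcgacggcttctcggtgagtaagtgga
BRIP1 held 3 CCAAT boxes, which began 117, 49 and 28 bases before its start, and a CHR element 240 bases before it. BLM likewise held 3 CCAAT boxes, at 141, 46 and 21 bases before the start. The E2F motif of FANCD2 began 2 bases before its start and that of FANCA 172 bases before it, and POLQ had CHR elements 230 bases before and 3 bases after its start. These are matches of letters and were not tested as binding sites.

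Carbo+COM33 against Carbo asks what adding COM33 did to these genes in the presence of the platinum drug. FANCA fell and no other of the 44 genes passed the test (2.53% of all genes fell and 2.43% rose). Most of the 44 were nevertheless lower: 36 had a negative log2 fold change, with a median of -0.25 beside -0.01 over all genes, and 23 had an unadjusted p under 0.05 (22.4% of all genes). All 3 Carbo+COM33 values lay below all 3 Carbo values for 17 of the 44 genes (11.9% of all genes) and above them for 2 (11.7% of all genes), RAD51D and ERCC1. This comparison shares the 3 Carbo libraries with Carbo against control, so opposite signs in both are not independent of each other.

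FANCA averaged 22.4 ± 0.196 CPM with Carbo+COM33 and 32.8 ± 6.31 CPM with Carbo (SD, n = 3), and the groups did not overlap. The log2 fold change was -0.55 ± 0.13 (SE; edgeR adjusted p = 0.0326). The call rested on few libraries: it was lost without control 2 (edgeR adjusted p = 0.0567), Carbo 2 (0.153), Carbo 3 (0.134) or any Carbo+COM33 library (0.0754 to 0.111). Without Carbo 1 the fold change was -0.69 (edgeR adjusted p = 0.000666).

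Next in order came genes of several roles that did not pass. BARD1 had a log2 fold change of -0.76 ± 0.21 and EXO1 of -0.82 ± 0.23 (edgeR adjusted p = 0.0585 and 0.0587). MSH6, CHEK1, MRE11 and FANCG, the last a core complex subunit, had -0.37, -0.56, -0.52 and -0.36 (edgeR adjusted p from 0.0588 to 0.0713). BRIP1, at -0.74, still overlapped Carbo 1, and BRCA1, at -0.52, did not overlap (edgeR adjusted p = 0.0764 and 0.0807). FANCI was at -0.57 and FANCD2 at -0.50, with all 3 Carbo+COM33 libraries of each gene below the lowest Carbo library.

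The median log2 fold change varied over the role groups. It was -0.52 over the 5 BRCA complex genes, -0.54 over the 2 clamp genes, -0.49 over the 7 resection genes, -0.32 over the 8 core complex genes, -0.21 over the 4 checkpoint kinases and -0.14 over the 7 strand exchange helpers. Over the 6 nucleases the median was 0.03 and over the 3 polymerases -0.14. RAD51D, a strand exchange helper, had 23.9, 26.1 and 27.9 CPM with Carbo+COM33 and 19.98, 22.8 and 18.1 CPM with Carbo (log2 fold change 0.35 ± 0.11, edgeR adjusted p = 0.0881). It was the member furthest above Carbo, and it did not pass.

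BRCA2 and POLQ, which were high in every Carbo library, were close to Carbo when COM33 was added. The log2 fold change of BRCA2 was -0.10 ± 0.15 (edgeR adjusted p = 0.749), while its Carbo+COM33 libraries spread between 35.3 and 54.7 CPM. That of POLQ was -0.14 ± 0.091 (edgeR adjusted p = 0.391), with all 3 of its Carbo+COM33 libraries between 38.2 and 41.0 CPM. Whether these genes differed from FANCA in their response was not tested.

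**Figure D4:**
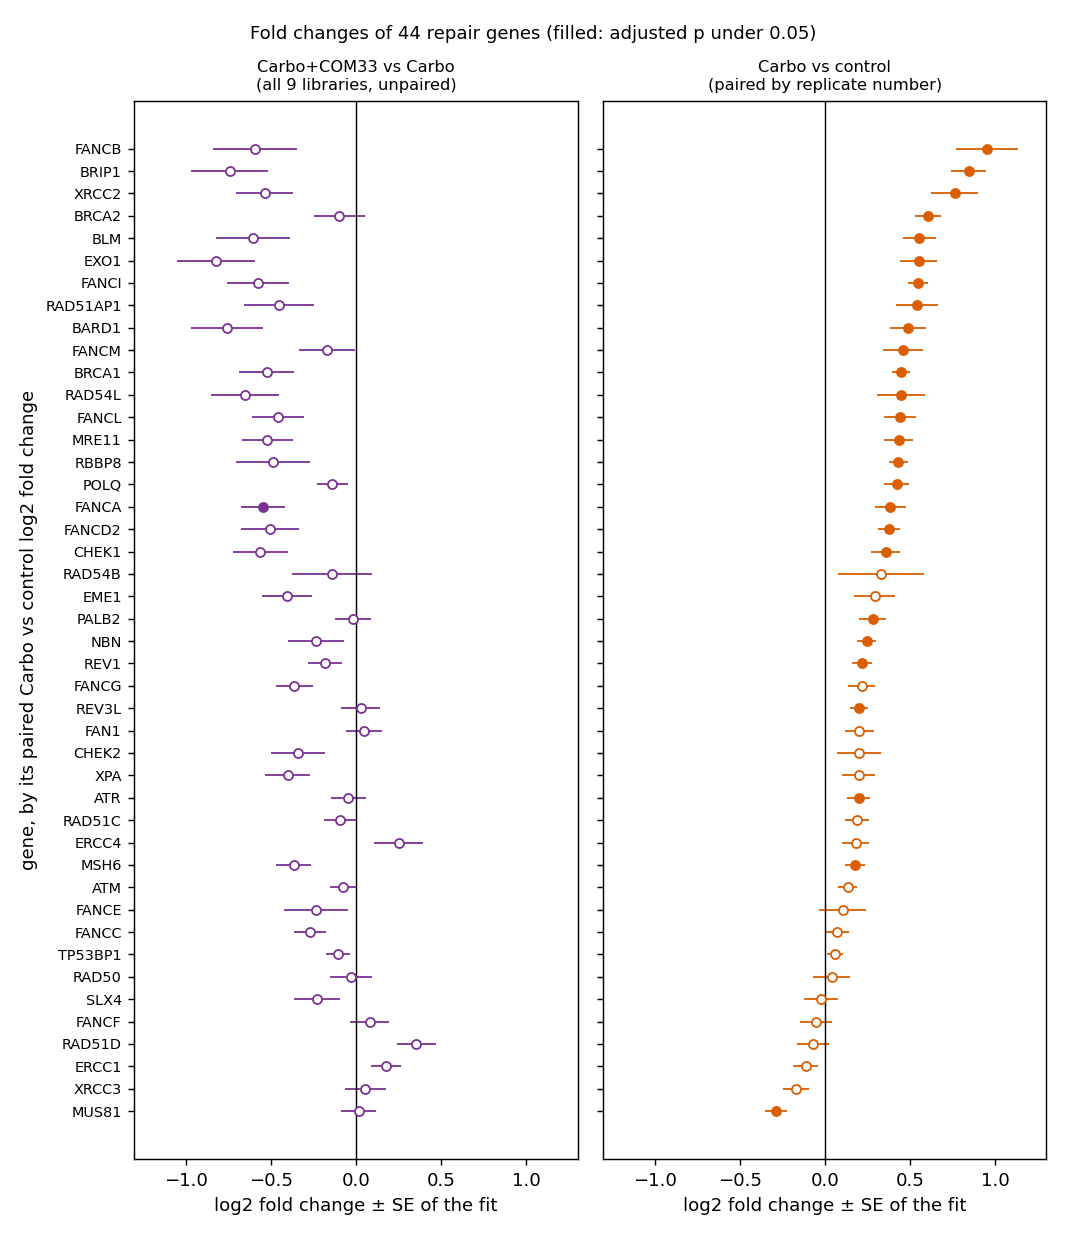
Log2 fold change ± SE for each of the 44 repair genes, Carbo+COM33 against Carbo (left, all 9 libraries, unpaired) and Carbo against control (right, paired), filled where the edgeR adjusted p was under 0.05. In the left panel FANCA is the filled point and most others lie below 0; in the right panel 25 filled points lie above 0 and MUS81 below, and both panels use the same Carbo libraries.

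Here too the count of calls hung on Carbo replicate 1. Without it, 19 of the 44 genes fell (8.79% of all genes), among them EXO1 at -1.01, BRIP1 at -0.99, BARD1 at -0.98, CHEK1 at -0.75 and BRCA1 at -0.69. With all libraries, DESeq2 called 12 of the 44 lower (4.13% of all genes).

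Carbo+COM33 against control sets the combined treatment beside untreated cells. None of the 44 genes passed (6.29% of all genes passed in either direction), 7 had an unadjusted p under 0.05 (24% of all genes, a larger share than among the 44), and DESeq2 called 2, BRCA2 and ERCC4, both higher (5.14% of all genes). The log2 fold changes centred near 0, with 21 positive and a median of -0.01, the same as over all genes. Values of the groups did not overlap for 4 of the 44 genes above control (14.3% of all genes), POLQ, RAD51D, PALB2 and FAN1, and for 4 below (14.4% of all genes). All 3 Carbo+COM33 values of BRCA1 and of FANCI lay inside the control range: BRCA1 averaged 85.4 ± 9.59 CPM with Carbo+COM33 and 89.3 ± 14.3 CPM in control, and FANCI averaged 60.5 ± 3.34 CPM with Carbo+COM33 and 61.2 ± 13.0 CPM in control (SD, n = 3).

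The genes with the lowest p-values against control were BRCA2 at a log2 fold change of 0.51 ± 0.15, POLQ at 0.29 ± 0.092 and ERCC4, the catalytic partner of ERCC1, at 0.44 ± 0.15 (edgeR adjusted p = 0.0626, 0.0808 and 0.0923). ERCC4 had 44.1, 37.9 and 28.95 CPM with Carbo+COM33 and 24.96, 27.4 and 29.6 CPM in control, so 1 library of the 3 overlapped. MUS81 was at -0.27 ± 0.10 and PALB2 at 0.26 ± 0.11 (edgeR adjusted p = 0.134 and 0.152). Without Carbo+COM33 replicate 3, which was close to control for all of BRCA2, ERCC4 and MUS81, 4 of the 44 genes passed: BRCA2 at 0.67, ERCC4 at 0.58 and REV3L at 0.36 rose (6.42% of all genes), and MUS81 at -0.40 fell (7% of all genes).

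Of 90 further repair and damage response genes listed outside the 44, 88 had a row and 84 were tested. With pairing, 19 of the 84 rose (11.2% of all genes) and 8 fell (11.5% of all genes) with Carbo, with a median log2 fold change of 0.13. The lowest p-values belonged to TOPBP1, the activator of ATR, at 0.42, USP1, which removes ubiquitin from FANCD2, at 0.36, the resolvase GEN1 at 0.50, the ubiquitin ligase RAD18 at 0.52, the nuclease DNA2 at 0.58 and the end protection factor RIF1 at 0.28. With Carbo+COM33 against Carbo, 3 of the 84 fell, a share near the 2.53% of all genes: the ligase LIG1 by 0.68, the Fanconi ubiquitin-conjugating enzyme UBE2T by 0.82 and RPA1, which coats single-stranded DNA, by 0.42, on the log2 scale. With the replicate block in these groups alone none of the 84 fell (lowest edgeR adjusted p = 0.0655; 1.56% of all genes fell). With Carbo+COM33 against control, 2 of the 84 rose, the end joining ligase LIG4 by 0.39 and TOPBP1 by 0.38, a share no larger than the 3.2% of all genes, and 1 rose with the block (3.19% of all genes).

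TOPBP1 had 95.5, 86.9 and 77.9 CPM with Carbo+COM33, 86.3, 83.3 and 98.3 CPM with Carbo, and 64.1, 65.0 and 70.3 CPM in control, and neither treated group overlapped control. UBE2T had 7.81, 7.96 and 7.48 CPM with Carbo+COM33, 10.2, 12.3 and 18.7 CPM with Carbo, and 8.32, 7.93 and 9.03 CPM in control. Its Carbo values stood above both other groups.

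Proliferation genes moved with the repair genes. Of 27 genes of replication and mitosis, a list also chosen with earlier results known, 24 rose with Carbo in the paired test (11.2% of all genes). Their median log2 fold change was 0.44. With Carbo+COM33 against Carbo 9 fell (2.53% of all genes), with a median of -0.43, and 3 fell with the replicate block in these groups alone (1.56% of all genes). In Carbo+COM33 against control none passed and 2 were lower with the block (3.67% of all genes). There the log2 fold changes ran from -0.52 to 0.50 with a median of -0.05. Of the 27 genes, 7 lay wholly above control (14.3% of all genes) and 7 wholly below it (14.4% of all genes). Library by library, the median deviation of the 44 repair genes from their 9-library means was -0.07, -0.09 and -0.13 log2 units with Carbo+COM33, -0.01, 0.22 and 0.31 with Carbo, and -0.19, -0.09 and 0.01 in control. For the 27 proliferation genes it was -0.07, -0.12 and -0.25 with Carbo+COM33, -0.01, 0.30 and 0.62 with Carbo, and -0.25, -0.16 and -0.07 in control. Within Carbo and within control both sets were lowest in replicate 1 and highest in replicate 3. The part of proliferation in the repair gene values was not tested.

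GC content also moved with the result. The 44 genes had a median transcript GC of 42.1% against 48.3% over all genes tested, and 33 of them lay at or under 48.3%. Between libraries, the median deviation of all genes over 60% GC was -0.18, -0.12 and 0.12 log2 units with Carbo+COM33, -0.02, -0.03 and -0.18 with Carbo, and 0.17, 0.18 and 0.07 in control. With pairing, 23 of the 33 low-GC repair genes rose, with a median log2 fold change of 0.36, beside 20.2% and 0.11 over all low-GC genes. Of the 11 high-GC repair genes 2 rose and 1 fell, with a median of 0.10, beside 2.29% rising and a median of -0.13 over all high-GC genes.

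After the trend with GC content and gene length was removed from each library, 17 of the 44 genes rose with pairing (5.72% of all genes) and none fell (4.81% of all genes). These were 14 of the 33 low-GC and 3 of the 11 high-GC genes, with medians of 0.24 and 0.23. Of the 26 paired calls, 16 were kept, FANCG was added, and MUS81, NBN, CHEK1, PALB2, RAD51AP1, FANCM, REV1, REV3L, MSH6 and ATR were lost. FANCA and RAD54L, at 55.4% and 53.1% GC among the 11 high-GC genes, were called under both. The highest GC of these genes was 63.8%, in XRCC3, which was called under neither.

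**Figure D5:**
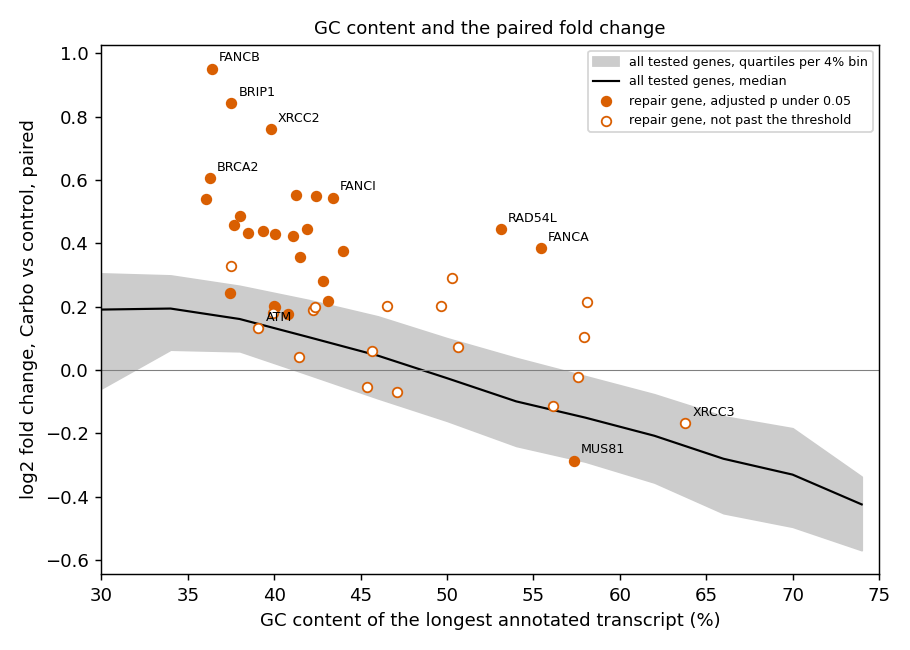
Paired log2 fold change of Carbo against control over the GC content of each gene's longest transcript, with repair genes as points (filled where the edgeR adjusted p was under 0.05) and all tested genes as a line of medians and a band of quartiles per 4% of GC. The line falls with GC, most repair genes lie left of 48.3% GC and many of these above the band, and FANCA and RAD54L lie above it on the right.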

How the data were processed

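Poly-A RNA of 9 SKOV3 libraries was sequenced as paired-end 150-base reads, per the labels' protocols. HISAT2, HTSeq 0.11.2, DESeq2 1.26.0 and the build GRCh38 are named in the submitters' processing notes, with no settings, so the strand setting is not given in the sources used here, and reads of overlapping and antisense genes cannot be told apart. The authors deposited counts per gene and FPKM per gene for each library. Gene length was computed back from the count, FPKM and total of the library with the gene's highest count. With that length, the FPKM of every library equalled count divided by length and library total. FPKM served for levels between genes. All 32378 identifiers matched GENCODE release 29, from which coordinates and GC content were taken. The members and lists were chosen with earlier results of these data known.

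From the deposited counts, filterByExpr of edgeR 4.0.16 kept 16450 genes, TMM scaled the libraries (factors 0.982 to 1.01), and the quasi-likelihood test was fitted to all 9 libraries with 3 groups (6 residual degrees of freedom), adjusted after Benjamini-Hochberg over the 16450 genes and called under 0.05. SE is the log2 fold change over the square root of F. A second fit of the Carbo and control libraries alone had a block for each replicate number (2 residual degrees of freedom), because deviations of same-numbered libraries from their group means correlated at 0.824, 0.565 and 0.748 across 6607 genes, which are not independent replicates. Different-numbered Carbo and control libraries ran from -0.779 (Carbo 1 with control 3) to 0.402 (Carbo 2 with control 3). Carbo+COM33 2 with control 3 reached 0.524, and nothing in the labels states what a number marks. The 6 other alternatives were a GC and length offset (splines with 5 degrees of freedom), RLE factors, no filter, DESeq2 1.42.0, limma 3.58.1 on log2(FPKM + 0.1) and the 2 groups alone, and each library was left out in turn. Scripts were tested on simulated data. The genes given in every library were 12 fixed genes and, per comparison, up to 6 called genes per direction by lowest p; RAD51D, ERCC4, TOPBP1 and UBE2T were added after their values were seen. SLX1A and FIRRM of the further list were not analysed here. R 4.3.3 and Python 3.11.15 were used.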

Additional observations from a re-analysis of the deposited data

How the results depend on the processing

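Counts of the 44 repair genes that passed varied with the processing, and the cause was not tested. For Carbo against control none passed in the unpaired edgeR fit of all 9 libraries, or with the block over all 9 libraries. With the replicate block in these groups alone 26 passed, and 26, 16 and 25 without pair 1, 2 or 3. With the block and the GC and length correction 17 passed. Without the block, 15 passed with no filter on low counts and 5 in DESeq2. When 1 library was left out, also without the block, 0 to 19 passed, the 19 without Carbo 1. Over all 16450 genes the block in these groups alone called 1847 higher and 1892 lower. These counts were 2171 and 2167 without pair 1, 732 and 891 without pair 2, and 1345 and 1497 without pair 3. They were 941 and 792 with the block and the correction, 82 and 50 in DESeq2, and 548 and 486 without Carbo 1. With no filter they were 382 and 546 of 32378 genes. For Carbo+COM33 against Carbo 1 passed, while 0 passed with the block, 10 with the block over all 9 libraries, 2 with the block and the GC and length correction, 7 with that correction alone (1 higher, 6 lower), 15 with no filter, 12 in DESeq2, 0 in limma on FPKM, and 0 to 19 with 1 library left out (6 without control 1, 19 without Carbo 1). Over all genes 400 rose and 416 fell. These counts were 756 and 798 with the block over all 9 libraries, and 587 and 478 with the block and the correction. They were 659 and 576 with the correction alone, 677 and 679 in DESeq2, and 931 and 945 of 32378 genes with no filter. They were 494 and 555 without control 1, and 1275 and 1446 without Carbo 1. For Carbo+COM33 against control none passed, while 1 passed with the block and the correction, 2 with no filter, 1 with these groups alone, 2 in DESeq2, and 0 to 4 with 1 library left out. Over all genes 527 rose and 508 fell. These counts were 1020 and 677 with the block and the correction, and 903 and 1031 of 32378 genes with no filter. They were 731 and 731 with these groups alone, and 846 and 717 in DESeq2. Same-numbered libraries did not pair Carbo+COM33 with Carbo (correlations -0.0150, 0.138 and -0.388) or with control (0.0851, 0.101 and -0.420). Beside the unpaired fit of all 9 libraries, the block in the groups of these comparisons alone changed the FANCA call against Carbo and no other. The groups alone without the block also lost FANCA, so its loss did not need the block. The 1 gene called against control with the groups alone was not called with the block. FANCA was lost with that block (edgeR adjusted p = 0.0954), with these groups alone and no block (0.0593), with the block and the correction (0.0640) and in limma (0.0831). With the GC and length correction, with and without the block, the log2 fold change in Carbo against control turned to -0.0144 and -0.0099 for ATM and to 0.0105 and 0.0112 for ERCC1, and RAD50 to -0.081 and -0.0766. RAD50 was also -0.0155 in the block without pair 1, and ran from -0.0144 without Carbo 1 to 0.0969 without Carbo 3, and RAD51D from -0.1554 without Carbo 2 to 0.0112 without Carbo 3. That of BRCA2 in Carbo+COM33 against Carbo ran from -0.2429 without Carbo+COM33 1 to 0.0586 without Carbo+COM33 3, and was 0.0014 without Carbo 3. In 150 bases around the start, the CHR element lay in 2 of the 41 windows, or 4.88%, and in 6.84% of all promoters. There the CCAAT box lay in 13 of the 41, or 31.7%, and in 21.3% of all promoters. All 26 paired calls of Carbo against control kept their direction under every alternative run. Each of these genes went the same way in all 3 pairs, so leaving out a pair could hardly have turned its sign. The alternatives also used the same libraries. With 3 libraries a group, a gene that did not pass is not shown to be without a difference.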
